A study of Mus musculus with 4 samples.

Results

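Transcripts of lipoprotein lipase, its chaperone and its carrier, a related lipase, and angiopoietin-like proteins were measured in the livers of 4 fasted male mice. The group holds 8 genes, taken by symbol: the lipase genes Lpl, Lipc and Lipg, the chaperone gene Lmf1, the carrier gene Gpihbp1, and the angiopoietin-like genes Angptl4, Angptl6 and Angptl8. A probe set, the array's group of probes for a transcript, was taken where the platform annotation gives it exactly 1 gene symbol and that symbol is one of these. This gave 12 probe sets of the 45101 on the array, for 7 of the 8 genes and among 18194 genes named in this way. Lipc had 0 such probe sets and was not analysed here. The mice were C57BL/6J males of 12 weeks on normal chow, kept singly and deprived of food for 24 h. The study used 2 wild-type mice and 2 mice labelled Cnot3+/-, each on its own array, and the labels call them biological replicates and do not describe the Cnot3 allele further. CNOT3 is part of CCR4-NOT, the main deadenylase of the cell, which removes poly(A) tails and so starts mRNA decay. The question here is whether this group of transcripts differed between the genotypes after fasting.

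Lipoprotein lipase splits the triglycerides of chylomicrons and very low density lipoproteins at the capillary wall, above all in fat, heart and skeletal muscle. LMF1 folds the lipase in the endoplasmic reticulum of the cells that make it, and GPIHBP1 moves it across the endothelial cell and holds it there. ANGPTL4, which rises with fasting, and ANGPTL8, which rises with feeding and insulin, are secreted regulators that restrain the lipase. The adult hepatocyte makes hepatic lipase, the product of Lipc, and has little Lpl of its own.

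The 4 arrays had close distributions, with median log2 values between 4.62 and 4.66. The array Cnot3+/- 2 stood apart. At least 2-fold differences separated it from wild-type 1 in 741 probe sets and from wild-type 2 in 508, against 373 and 241 for Cnot3+/- 1, and 166 between the wild-type arrays. All 6 hepatocyte markers passed the filter on dim probe sets, and their summed level ran from 16.66 to 16.73 for the wild-type mice and from 16.73 to 16.76 for the Cnot3+/- mice (log2). The Cnot3 transcript was not lower in the livers labelled Cnot3+/-, with differences of -0.03 (SE 0.25) and 0.11 (SE 0.14) on its 2 probe sets. Probes outside the altered part of a gene need not show a change, but where these probes lie was not known here. The values therefore do not bear out the labels, and the reason was not tested. Directions are given for the livers labelled Cnot3+/-.

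Within the group, Lpl stood higher in the Cnot3+/- livers on both of its probe sets, by a factor of about 2.8, and Angptl8 and Gpihbp1 stood lower. Angptl4 and the brighter Lmf1 probe set lay close to wild-type. In both genotypes the brighter Lipg probe sets read higher in replicate 2 than in replicate 1, and the genotypes overlapped. None of these differences passed the test. Of the 12 probe sets, 10 passed a filter that leaves out the dimmest 40% of the array, and 0 of the 10 had a limma adjusted p below 0.05. The share called over all 27060 probe sets tested was 0.00739%, or 2 probe sets, both higher. At an unadjusted p below 0.05 there were 3 of the 10, those of Lpl and Angptl8, against 3.72% of all probe sets. The genotypes did not overlap in 5 of the 10, against 31% of all probe sets. Of the 5, 2 were higher and 3 lower, where the shares over all probe sets were 14.5% and 16.5%. The 2 higher ones are both of Lpl. With 1 probe set per gene, 4 of 7 did not overlap, against 31.5% of all genes. The members were chosen with earlier results of these data known, so these shares only describe the group. The median difference was 0.03 over the 10 and -0.01 over all probe sets tested, on the log2 scale. Differences are Cnot3+/- minus wild-type, with n = 2 per group throughout.

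**Figure D1:**
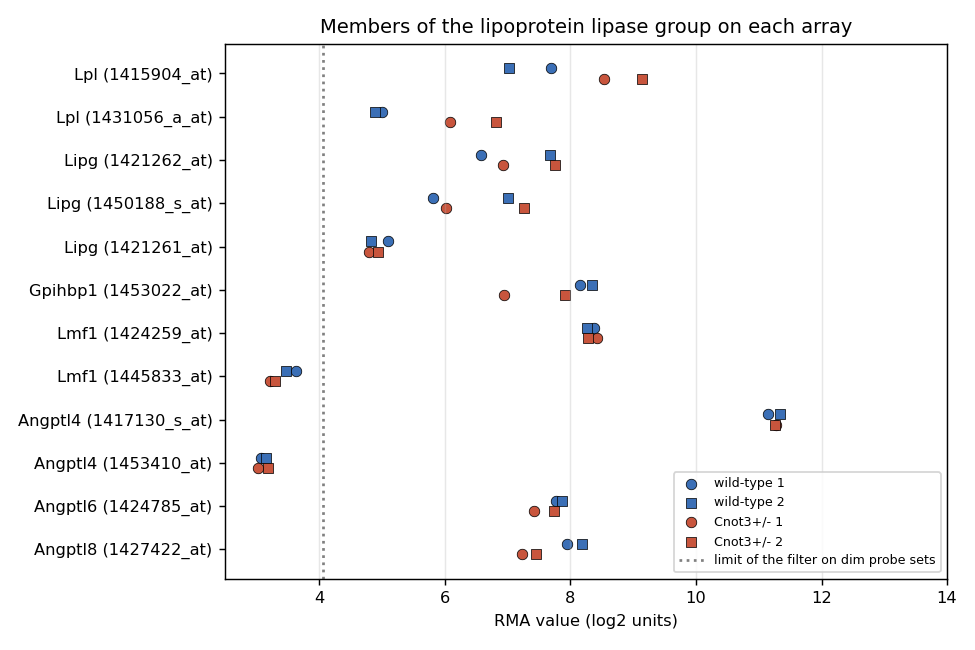
RMA values (log2 units, horizontal axis) of the 12 member probe sets on each of the 4 arrays. Blue marks wild-type and red Cnot3+/-, circles replicate 1 and squares replicate 2, and the dotted line is the filter limit of 4.06. The 2 Lpl probe sets show both red points to the right of both blue ones, and Angptl8 and Gpihbp1 show them to the left.

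Lpl encodes the lipase itself. Its brighter probe set (1415904_at) read 7.70 for wild-type 1 and 7.02 for wild-type 2, against 8.53 for Cnot3+/- 1 and 9.15 for Cnot3+/- 2. Both Cnot3+/- values lay above both wild-type values, and the higher wild-type array stood 0.84 below the lower Cnot3+/- array. The difference was 1.48 (SE 0.31, 95% confidence interval 0.71 to 2.25), which is 2.79-fold with an interval from 1.63 to 4.77 (limma unadjusted p = 0.00389, adjusted p = 1). The second probe set (1431056_a_at) read 5.005 and 4.89 in the wild-type mice (1 and 2), against 6.07 and 6.81 in the Cnot3+/- mice. It gave nearly the same difference, 1.49 (SE 0.26, interval 0.83 to 2.15), or 2.81-fold (unadjusted p = 0.00178, adjusted p = 1). The probe sets of a gene share the animals and the arrays, so the second is not a further replicate.

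Both Lpl probe sets belonged to the 85 probe sets, 0.314% of those tested, that were at least 2-fold higher with no overlap. Of 5802 genes with 2 or more probe sets tested, 6 had all of theirs in that class and 27 had any. Lpl was chosen with earlier results of these data known, so these counts only describe its values. Since the genotypes did not overlap, leaving out 1 array could not turn the direction and bears only on the size. The size was smaller without the array that stood apart. Without Cnot3+/- 2 the difference was 1.18 on the brighter probe set and 1.13 on the other, and without Cnot3+/- 1 it was 1.79 and 1.86. Without wild-type 2, the lower of the wild-type arrays, the brighter probe set gave 1.14. The smallest adjusted p that either probe set reached under any alternative was 0.0977, for 1431056_a_at without Cnot3+/- 1.

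Cells other than hepatocytes, macrophages among them, make Lpl. The 9 Kupffer cell and macrophage markers, all tested, had summed levels of 11.77 and 11.91 for the wild-type mice, 11.65 for Cnot3+/- 1 and 13.52 for Cnot3+/- 2 (log2). As a mean change from wild-type they stood at -0.25 in Cnot3+/- 1 and 1.86 in Cnot3+/- 2, where the brighter Lpl probe set stood at 1.18 and 1.79. All 9 had higher means in Cnot3+/-, with a median difference of 0.68, 0 called in limma (0 at an unadjusted p below 0.05), and 2 that did not overlap, both higher, against 14.5% of all probe sets. These 2 were Marco and Cd5l, which read 6.40 against 5.73 and 5.85, and 9.86 against 9.61 and 9.79, in Cnot3+/- 1 against wild-type. On that array Clec4f, Cd68, Csf1r, Vsig4 and Timd4 lay below both wild-type mice, and Adgre1 and Cd163 lay between them. All are named after their values were seen. The part of these markers in the Lpl value was not tested. Of the 5 adipocyte markers 3 had a probe set, and Adipoq and Lep lay below the filter limit. Their summed level was 5.55 and 5.74 for wild-type against 5.65 and 5.50 for Cnot3+/-. The 5 muscle markers, of which Tnnt3 and Myl1 lay below the limit, summed to between 6.99 and 7.03 in wild-type and between 6.95 and 7.06 in Cnot3+/-. In liver tissue measured in bulk, more cells of a type and more RNA per cell cannot be told apart.

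The brighter Lpl probe set had the widest range over the 4 arrays of all members tested, 2.12. Among the 137 probe sets of other single genes that varied at least as much, Orm2, an acute phase protein gene, had the most similar profile, with a Pearson r of 0.965 over the 4 arrays. Usp18, an interferon-induced protease gene, followed with 0.928 and Lcn2, the lipocalin 2 gene, with 0.925. These values describe 4 points that share arrays and animals. Orm2 read 7.99 and 7.51 for the wild-type mice against 9.86 and 10.03 for the Cnot3+/- mice, so that wild-type 2 was the lowest and Cnot3+/- 2 the highest for it as for Lpl.

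Lipg encodes endothelial lipase, which acts mainly on the phospholipids of high density lipoproteins. Its brightest probe set (1421262_at) read 6.57 for wild-type 1, 7.67 for wild-type 2, 6.92 for Cnot3+/- 1 and 7.75 for Cnot3+/- 2. The values split by animal within each genotype, with a gap of 1.10 between the wild-type mice and 0.83 between the Cnot3+/- mice. In both genotypes replicate 2 was the higher. The labels do not say whether same-numbered mice share anything, and this was not tested. The difference between genotypes was 0.21 (SE 0.44, interval -0.89 to 1.32, adjusted p = 1). A second probe set (1450188_s_at) followed the first, at 5.81, 6.999, 6.02 and 7.25 in the same order, and differed by 0.23 (SE 0.54). The dimmest one (1421261_at) stayed between 4.78 and 5.10 and did not show the split, with a difference of -0.10 (SE 0.16). The direction of all 3 turned when 1 array was left out: to -0.34, -0.36 and 0.04 without wild-type 1, and the brighter pair also to -0.20 and -0.39 without Cnot3+/- 2.

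Gpihbp1 encodes the endothelial protein that binds the lipase and carries it to the capillary lumen. Its probe set (1453022_at) read 8.15 and 8.34 for wild-type 1 and 2, 6.95 for Cnot3+/- 1 and 7.92 for Cnot3+/- 2. Both Cnot3+/- values were the lower ones, but they lay 0.97 apart from each other, while the wild-type arrays lay 0.18 apart. The difference was -0.81 (SE 0.33, interval -1.63 to 0.02), that is 1.75-fold lower, with an unadjusted p = 0.0532 and an adjusted p = 1 in limma. It was -0.32 without Cnot3+/- 1 and -1.29 without Cnot3+/- 2.

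Of 8 endothelial markers tested, 7 had lower means in Cnot3+/-. Without overlap 4 were lower and 1 higher, against 16.5% and 14.5% of all probe sets. In limma 0 were called, and 3 had an unadjusted p below 0.05, against 3.72% of all probe sets. They had a median difference of -0.46 against -0.01 over all probe sets. Their mean change from wild-type was -0.71 in Cnot3+/- 1 and -0.09 in Cnot3+/- 2, where Gpihbp1 stood at -1.29 and -0.32. In Cnot3+/- 2 Cdh5, Egfl7 and Vwf lay above both wild-type mice. Kdr, Stab2, Clec4g and Emcn lay below both on that array, and Pecam1 lay between them. All are named after their values were seen. The summed level of the 8 markers was 11.00 and 11.01 for the wild-type mice, 9.99 for Cnot3+/- 1 and 10.78 for Cnot3+/- 2 (log2). The part of these markers in the Gpihbp1 value was not tested.

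**Figure D2:**
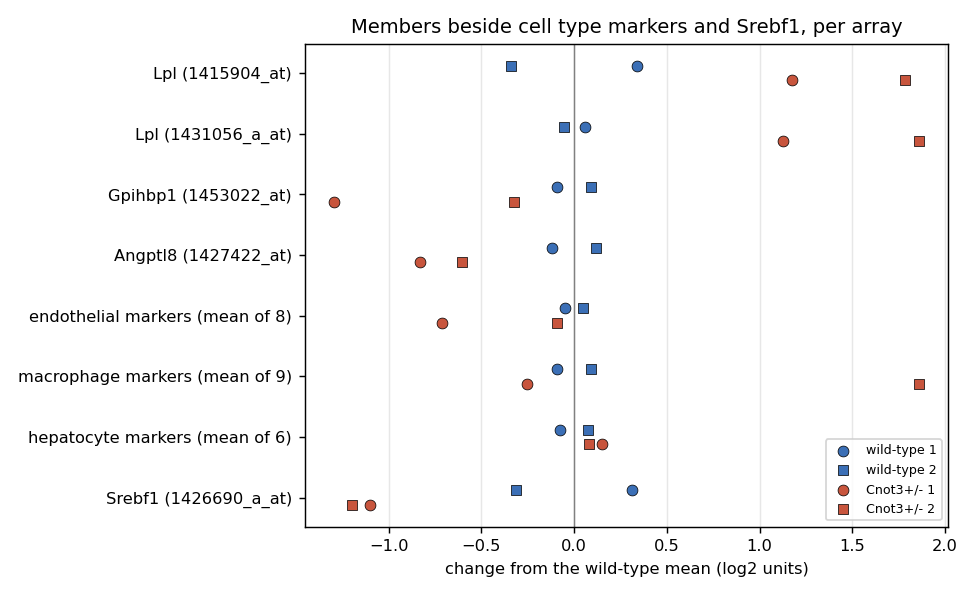
Change of each array from the wild-type mean (log2 units, horizontal axis) for Lpl, Gpihbp1, Angptl8 and Srebf1 and, as the mean over their genes, for endothelial, macrophage and hepatocyte markers. Blue marks wild-type and red Cnot3+/-, circles replicate 1 and squares replicate 2. The brighter Lpl probe set stands at 1.18 and 1.79 in the Cnot3+/- arrays, while the macrophage markers stand at -0.25 and 1.86. Gpihbp1, Angptl8, the endothelial markers and the macrophage markers have their lowest point in Cnot3+/- 1.

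Lmf1 encodes the membrane protein of the endoplasmic reticulum without which lipoprotein lipase, hepatic lipase and endothelial lipase do not fold. Its brighter probe set (1424259_at) read 8.37 and 8.26 for the wild-type mice against 8.43 and 8.28 for the Cnot3+/- mice. The genotypes overlapped, all 4 values lay within 0.17 of each other, and the difference was 0.04 (SE 0.14, interval -0.32 to 0.40). Leaving out wild-type 2 turned it to -0.02, and leaving out Cnot3+/- 1 to -0.03. A second probe set (1445833_at) was below the filter limit on every array, at 3.63 and 3.47 for wild-type against 3.21 and 3.29 for Cnot3+/-. It was left out of the test, and a fit without the filter gave it -0.30 (SE 0.13, adjusted p = 0.994). The probe sets of Lmf1 therefore disagreed by 0.34, and the dim one has no detection call to support its level.

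Angptl4 encodes the fasting-induced inhibitor of lipoprotein lipase and is a target gene of the PPAR receptors. Its bright probe set (1417130_s_at) read 11.14 for wild-type 1, 11.33 for wild-type 2, 11.28 for Cnot3+/- 1 and 11.26 for Cnot3+/- 2. Both Cnot3+/- values lay between those of the wild-type mice. The difference was 0.03 (SE 0.14), and its interval from -0.33 to 0.39 leaves out a rise of more than 1.31-fold and a level below 0.794 of wild-type. Its sign turned to -0.01 with each array set to the same 75th percentile, and to -0.06 when wild-type 1 was left out. A second probe set (1453410_at), between 3.02 and 3.18 on the 4 arrays, was below the filter limit and differed by -0.01 (SE 0.13) in the fit without the filter.

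Angptl8 encodes a small secreted liver protein that is induced by feeding and acts on lipoprotein lipase together with other members of the family. Its only probe set (1427422_at) read 7.94 and 8.18 in the wild-type mice (1 and 2), against 7.23 and 7.46 in the Cnot3+/- mice. Both Cnot3+/- values lay below both wild-type values, and the gaps within the genotypes were alike, at 0.23 each. The difference was -0.72 (SE 0.17, interval -1.13 to -0.30), that is 1.65-fold lower (limma unadjusted p = 0.0062, adjusted p = 1). With 1 array left out it ran from -0.84 to -0.60.

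Angptl6 encodes a secreted liver protein of the same family, known in mice for a part in energy expenditure. Its probe set (1424785_at) read 7.77 and 7.87 for the wild-type mice against 7.42 and 7.75 for Cnot3+/- 1 and 2. The genotypes did not overlap, but Cnot3+/- 2 and wild-type 1 were only 0.03 apart. The difference was -0.24 (SE 0.17, interval -0.66 to 0.18, adjusted p = 1), and -0.07 without Cnot3+/- 1. Cnot3+/- 1 was thus the lower of the Cnot3+/- arrays for Angptl6, Angptl8 and Gpihbp1. It was also the lower for both Lpl probe sets, every Lipg probe set and the dim ones of Lmf1 and Angptl4. The bright probe sets of Lmf1 and Angptl4 went the other way.

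The sequence before the start of transcription was at hand for 4 of the 8 members in RefSeq's promoter windows (assembly GRCm38.p6). The 250 bases before the start are shown for Angptl8, the angiopoietin-like member with the largest difference, and for Lmf1, whose brighter probe set lay at wild-type level. The Angptl8 window lies at chr9:21835260-21835509 on the + strand, inside the span of the gene Dock6, and the Lmf1 window at chr17:25578924-25579173 on the + strand. Both run 5′ to 3′ and end at the base before the start, and capitals mark the GC box letters GGGCGG on either strand.
Angptl8: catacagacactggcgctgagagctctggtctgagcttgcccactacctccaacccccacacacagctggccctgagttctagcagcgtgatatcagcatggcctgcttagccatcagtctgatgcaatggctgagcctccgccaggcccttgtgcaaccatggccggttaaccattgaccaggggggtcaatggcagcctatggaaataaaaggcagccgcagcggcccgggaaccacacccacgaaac
Lmf1: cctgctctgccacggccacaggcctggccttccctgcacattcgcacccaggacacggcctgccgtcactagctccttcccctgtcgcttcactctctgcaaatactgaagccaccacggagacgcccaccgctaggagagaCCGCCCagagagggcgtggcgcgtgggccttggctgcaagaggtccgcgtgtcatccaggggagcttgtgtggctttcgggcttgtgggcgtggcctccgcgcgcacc
The Lmf1 window holds 1 GC box, a motif found in 32.7% of the 32851 windows of this length, and its G+C content is 66.8% against 58.8% for Angptl8. Neither window holds the TATA box letters TATAAA (12.4% of windows), CCAAT (33.8%), the E-box CACGTG (6.02%), the nuclear receptor half-site AGGTCA (14%) or the sterol element core TCACNCCAC (1.05%), searched on both strands with overlaps allowed. These are matches of letters and not sites of binding, and no match says only that these letters are not in the window.

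**Figure D3:**
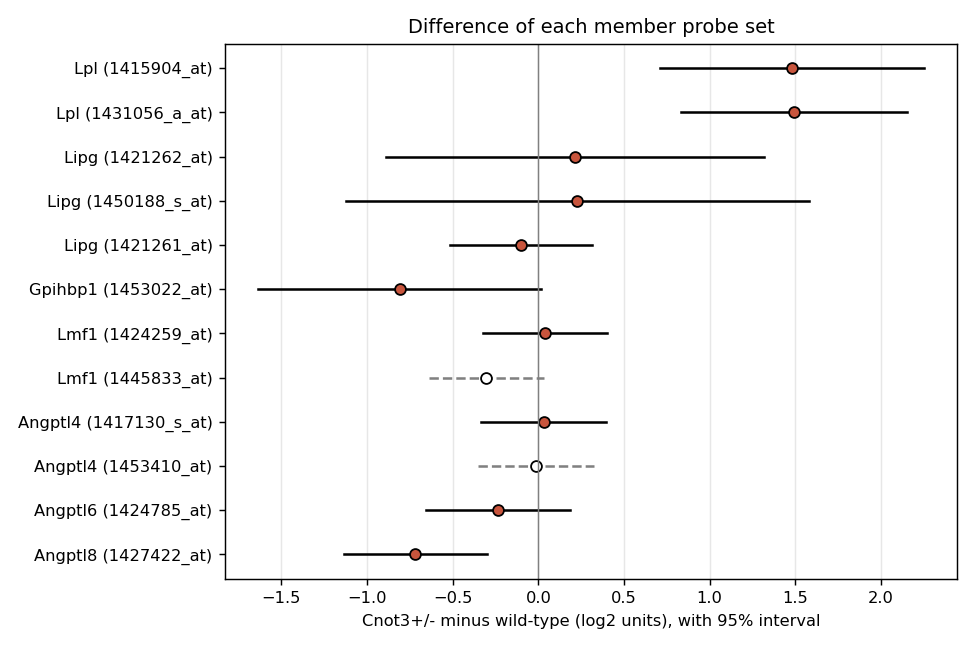
Difference between Cnot3+/- and wild-type (log2 units, horizontal axis) of each member probe set with its 95% confidence interval from limma. Filled points passed the filter on dim probe sets, and open points with dashed lines come from the fit without it. The intervals of the Lpl probe sets and of Angptl8 leave out 0, and that of Gpihbp1 ends at 0.02.

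Other genes of plasma triglyceride handling, 73 in 6 lists, gave 64 with a probe set tested. Of these 0 were called in limma (6 at an unadjusted p below 0.05), 34 were higher and 30 lower, and 25 did not overlap, which is 39.1% against 31.5% of all 13379 genes taken through 1 probe set each. Their median difference was 0.03, against -0.01 over all genes. In the list of other lipases and esterases 3 of 10 did not overlap. Among them the carboxylesterase gene Ces1d read 12.49 and 12.51 for the wild-type mice and 12.03 for both Cnot3+/- mice, a difference of -0.47 (SE 0.13), and Ces1g differed by 0.50 (SE 0.22), and by 0.27 when wild-type 1 was left out. The carboxylesterases lay on opposite sides of wild-type.

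Among apolipoproteins and transport proteins that serve as cofactors or substrates of lipolysis, 5 of 9 did not overlap, 2 higher and 3 lower. This count and those of the lists below stand beside 31.5% of all genes that did not overlap. The lists are small, and no test of a list was run. Apoa4 differed by 0.63 (SE 0.31), from 0.21 without Cnot3+/- 2 to 1.05 without Cnot3+/- 1. Mttp, which loads lipid onto lipoproteins, differed by -0.18 (SE 0.15), and by -0.085 when wild-type 1 was left out and -0.28 when wild-type 2 was. Apoc2, the activating cofactor of lipoprotein lipase, differed by 0.23 (SE 0.19; 0.035 without wild-type 1), and Apoa5, which raises lipolysis, by -0.09 (SE 0.14; -0.042 without wild-type 2). Both were named after their values were seen. In the list of folding, cleavage and heparan sulfate genes 4 of 11 did not overlap. There Pcsk6, a convertase gene, differed by -0.22 (SE 0.17), and by -0.065 when wild-type 2 was left out and -0.38 when wild-type 1 was. Sdc1, the gene of the syndecan that binds remnants on hepatocytes, differed by 0.16 (SE 0.15), from 0.035 without Cnot3+/- 2 to 0.28 without Cnot3+/- 1. Of 11 uptake genes 4 did not overlap, among them Vldlr, the gene of the very low density lipoprotein receptor, at -0.33 (SE 0.16; -0.21 without Cnot3+/- 2). Vldlr was dim, at 4.25 and 4.37 for wild-type against 4.11 and 3.86 for Cnot3+/-, near the filter limit of 4.06. Scarb1, the gene of the high density lipoprotein receptor, differed by 0.22 (SE 0.14). None of these reached an adjusted p below 1.

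Among 15 regulators 5 did not overlap, 1 higher and 4 lower, a share near the 31.5% of all genes. Srebf1, whose product SREBP1 drives lipogenic genes and is induced by insulin, read 10.31 and 9.69 for the wild-type mice against 8.90 and 8.81 for the Cnot3+/- mice, a difference of -1.15 (SE 0.23, adjusted p = 1). It stood lower on both Cnot3+/- arrays, as Angptl8 and 16.5% of all probe sets tested did. A tie between Srebf1 and Angptl8 was not tested. Ppargc1a, which codes for the coactivator PGC-1alpha, had a difference of 1.13 (SE 0.29; 0.73 without wild-type 1). Ppara, which drives Angptl4 in fasting, differed by 0.05 (SE 0.20; -0.19 without wild-type 1) and was named after its value was seen. In the list of other angiopoietin-like, angiopoietin and fibrinogen-like genes 4 of 8 did not overlap, against 31.5% of all genes. Fgl1, a liver-made fibrinogen-like gene, differed by 1.01 (SE 0.37), from 0.45 without Cnot3+/- 1 to 1.56 without Cnot3+/- 2. Tek, the endothelial angiopoietin receptor gene, differed by -0.99 (SE 0.37), from -0.43 without Cnot3+/- 1 to -1.56 without Cnot3+/- 2. Cnot3+/- 1 was its lowest array, as it was for Gpihbp1, Angptl6 and Angptl8.

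**Figure D4:**
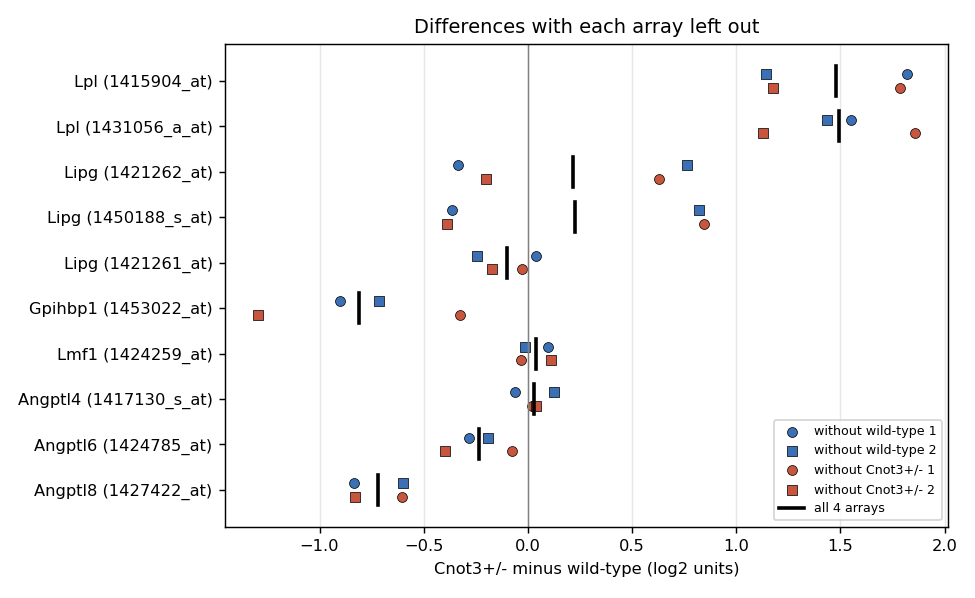
Difference between Cnot3+/- and wild-type (log2 units, horizontal axis) of the 10 member probe sets tested, with all 4 arrays (black bars) and with each array left out (blue, a wild-type array; red, a Cnot3+/- array; circles replicate 1, squares replicate 2). Lpl runs from 1.13 to 1.86 and Angptl8 from -0.84 to -0.60. Their genotypes do not overlap, so leaving out 1 array could not turn these signs. The points of Lipg lie on both sides of 0.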

How the data were processed

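Biotin-labelled cRNA from liver total RNA was read on Affymetrix arrays, 1 per mouse. The deposited table holds log2 values made by the authors with RMA, per the submitters' processing notes; its version was not given in the sources used here. RMA shrinks differences of dim probe sets. The log2 scale was taken from the values (1.85 to 14.96). All columns were mapped, and 0 were left over. Of 45101 probe sets, 34958 had 1 gene symbol in the platform annotation, 932 several and 9211 none.

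Probe sets in the lowest 40% of mean value (below 4.06) were left out, and each of the other 27060 was fitted on its own by limma 3.58.1 under R 4.3.3 (lmFit, then eBayes; two-sided tests, no covariate) with Benjamini-Hochberg adjustment over all of them (threshold 0.05). The fit had 2 residual degrees of freedom, and the prior added 3.41 (prior SD 0.167). A gene of a list was taken through its brightest probe set, with _x_at and _s_at used only where there was no other. Summed levels are log2 of the summed linear values over all marker genes with a probe set. An exact test of 2 against 2 arrays cannot go below p = 0.333, so none is given. On simulated data with independent normal errors, the fit was run over 27060 probe sets with changes of all sizes present together. It called 2% of 50 probe sets given a log2 change of 1, 40% at 1.5, 80% at 2 and 96% at 3. False calls numbered 4. The adjustment grows less strict as more probe sets change, and 2 were called in the livers. These shares therefore need not hold for the livers and can be too high for them. Named are all members, up to 2 genes per list with the largest difference among those that do not overlap, the 3 probe sets most like the member of widest range, and others said to be so. The members and lists were chosen with earlier results of these data known. The alternatives changed the filter, normalization, variance model, block, probe set choice and arrays.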

Additional observations from a re-analysis of the deposited data

How the results depend on the processing

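No member was called in any of the 13 alternatives run, by limma or by the ordinary linear model. Lpl, Gpihbp1, Angptl6 and Angptl8 had the same direction in all of them, but most alternatives could not turn it. A change of filter, variance model or block leaves the difference of a probe set as it is. Leaving out 1 array cannot turn the sign where the genotypes do not overlap, as for these genes. Only the change of normalization could have turned it. The 2 calls over all probe sets became 0 in limma with the replicate number as a block (1275 at an unadjusted p below 0.05, against 1007 without it), and 0 with any 1 array left out (401 to 1615), where a single array in a group is assumed to vary like the others. Without moderation of the variances 2 probe sets were called, both lower. With 1 array left out, between 7 and 9 of the 10 members did not overlap, against 60.6% to 69.6% of all probe sets, since 1 array against 2 separates more easily. Small differences turned: 9 values for Lipg, Lmf1 and Angptl4. The other 116 kept their direction, but many of them could not turn, for the reasons above, so the tally does not measure stability. Angptl4 turned to -0.0068 with a shared 75th percentile and ran from -0.064 to 0.13 with 1 array left out. In the same way Lmf1 ran from -0.032 to 0.11, and the Lipg probe sets from -0.34 to 0.76, from -0.39 to 0.85 and from -0.24 to 0.041. The cause was not tested. The scalings moved the median of all probe sets to -0.02 (quantile) and -0.04 (75th percentile).

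The genotypes share replicate numbers, and the deviations of same-numbered arrays from their group means correlated at 0.172 over the probe sets tested, which with 2 pairs does not show a pairing. Under the replicate block the smallest adjusted p of a member was 0.827.

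With 2 arrays a genotype, the intervals of Lpl reach from 1.63-fold to 4.77-fold, and the dim second probe sets of Lmf1 and Angptl4 have no background call.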
